A study of Mus musculus with 173 samples.

Results

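The genes described here encode the proteasome, the protease complex that degrades ubiquitin-tagged proteins, in single cells of the mouse dentate gyrus. Members were all genes whose symbol begins with Psma, Psmb, Psmc, Psmd, Psme or Psmg followed by a digit, which gave 48 of the 23307 genes in the deposited table. By role these were 7 alpha-ring and 7 constitutive beta-ring subunits of the core, the 3 immunoproteasome subunits Psmb8, Psmb9 and Psmb10, the tissue-restricted core subunits Psma8 and Psmb11, 6 base ATPases, 3 other base subunits, 8 lid subunits, 3 chaperones of base assembly, 4 chaperones of core assembly and 4 activators. The last member, Psmc3ip, encodes a cofactor of meiotic recombination and no proteasome subunit, and it was kept out of every proteasome count. Of the 48 members, 47 reached a transcript level of 1 TPM (a level corrected for transcript length and scaled to the same total in each library) in at least 5% of libraries; Psma8 did not.

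The study profiled adult hippocampal stem cells and their progeny as individual cells. All libraries came from the dentate gyrus of C57BL/6 mice aged 8 to 12 weeks, and their titles place 26 of the 172 libraries in class N, 4 in class R and the others in class C, letters that the labels do not spell out. The labels name no animal, sex, treatment or transgene, although the table holds a transcript of the fluorescent protein eCFP with median levels of 8739 TPM (class C), 44.6 TPM (class N) and 12 TPM (class R). Since no animal is named, each class was treated as 1 sample: values below are levels and differences with the spread over libraries, without p-values, and a gene was called higher or lower where the class means of log2(TPM + 1) differed by at least 1.

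The proteasome is built from a barrel-shaped core of stacked alpha and beta rings, in which the beta subunits Psmb5, Psmb6 and Psmb7 cut the substrate, and a regulatory 19S particle, whose base unfolds the substrate with a ring of ATPases and whose lid removes ubiquitin. Interferon signalling is known to replace the 3 catalytic subunits with Psmb8, Psmb9 and Psmb10 and to raise the activator Psme1-Psme2, which opens the core without the 19S particle. In neural stem cells, proteasome activity is studied as part of protein turnover during quiescence and activation.

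Transcription of the core is classically linked to an antioxidant response element and that of the immunoproteasome to interferon elements. RefSeq promoter windows of 300 bases on build GRCm38.p6, from 250 bases before to 50 after the start, matched 39 members by symbol. Psmc3ip was left out of that search. The antioxidant element core TGACNNNGC, searched on both strands, was in 6 of 39 members' windows (15.4%) and in 14% of the windows of all 27025 genes. The interferon-stimulated core (GAAA, any 2 bases, GAAA) was in 5 of 39 (12.8%) against 3.99% of all, the gamma-activated site TTCNNNGAA in 3 of 39 (7.69%) against 9.55%, and CCAAT in 14 of 39 (35.9%) against 41.1%. None of the 3 immunoproteasome windows held the interferon-stimulated core, and 1 of the 3, that of Psmb8, held the gamma-activated site. Among core windows, 0 of 7 of the alpha ring and 2 of 4 of the beta ring held the antioxidant core. The windows shown were picked because they hold a match, so they do not stand for the core or the immunoproteasome. Psmb6 and Psmb5 have the highest mean levels of the 6 members with the antioxidant core. Capitals mark that core in Psmb6 and Psmb5 and the gamma-activated site in Psmb8, and each match is a description of the letters only. Psmb6 is at chr11:70525107-70525406 on the plus strand, Psmb5 at chr14:54617946-54618245 on the minus strand and Psmb8 at chr17:34197945-34198244 on the plus strand.
Psmb6: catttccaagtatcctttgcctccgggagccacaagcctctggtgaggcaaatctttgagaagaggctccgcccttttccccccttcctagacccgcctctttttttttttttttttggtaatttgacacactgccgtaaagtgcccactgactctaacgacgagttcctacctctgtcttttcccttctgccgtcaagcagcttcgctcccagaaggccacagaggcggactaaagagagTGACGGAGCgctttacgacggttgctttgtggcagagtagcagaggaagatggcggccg
Psmb5: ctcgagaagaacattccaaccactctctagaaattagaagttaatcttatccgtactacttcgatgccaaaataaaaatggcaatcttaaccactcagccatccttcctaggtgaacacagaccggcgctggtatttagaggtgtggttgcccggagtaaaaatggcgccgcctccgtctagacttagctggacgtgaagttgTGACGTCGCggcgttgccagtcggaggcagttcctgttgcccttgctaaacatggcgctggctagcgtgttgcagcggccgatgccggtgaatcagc
Psmb8: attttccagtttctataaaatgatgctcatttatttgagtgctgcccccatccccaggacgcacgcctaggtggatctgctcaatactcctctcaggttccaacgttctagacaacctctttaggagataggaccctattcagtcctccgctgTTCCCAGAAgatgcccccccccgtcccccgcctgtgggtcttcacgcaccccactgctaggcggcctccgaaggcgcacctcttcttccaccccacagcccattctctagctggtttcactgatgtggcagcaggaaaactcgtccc

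Across libraries, 78.5% of all values were listed at 0, including those of Gapdh in 2 libraries, so a single subunit at 0 is given only as listed at 0. Between 1600 and 7192 genes per library reached 1 TPM, and 3 vascular-like libraries (C142, N4 and N21) held fewer than 300 genes at 100 TPM or more. Unsupervised clustering without the members gave 4 stem cell-like clusters, which held 5 N and most C libraries, 1 cycling (27 of C, 1 of N), 1 vascular-like (2 of C, 11 of N), 1 oligodendrocyte lineage-like (3 of C, 6 of N) and 1 neuron-like (6 of C, 3 of N, all 4 of R); stem cells and astrocytes share most of these markers. The mean log2(TPM + 1) over 13 stem cell markers had a median of 7.13 in C and 2.97 in N, and that over 8 mature neuron markers 1.29 in C and 7.61 in R. Class and cell type could therefore not be told apart in N or R.

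The most abundant members were core subunits, but not every core subunit ranked above the other roles. The activator Psme2, at a mean of 375.2 TPM, exceeded the alpha subunit Psma5 at 338.7 TPM. Psmb2, a beta-ring subunit, had the highest mean level of all members, 900.3 TPM over all libraries, followed by Psmb6 at 775.4 TPM, Psmb1 at 725.02 TPM, Psmb3 at 696 TPM and the alpha subunit Psma7 at 617.8 TPM. Psmb4 was the lowest constitutive core subunit at 169.2 TPM. Among the ATPases of the base, Psmc4 was highest at 400.9 TPM and Psmc2 lowest at 163 TPM, and in the lid Psmd14, the deubiquitinase, was highest at 288.7 TPM while Psmd3, a structural subunit, was lowest at 16.1 TPM. Each of these is a mean of high and near-zero values. Psmb2 was at 100 TPM or more in 88 C libraries, with a median of 1308 TPM among those, and it was listed at 0 in 15 libraries of C. Psmd3 was at 100 TPM or more in 2 C libraries and at 1 TPM or more in 22.

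The number of subunits seen in a library was far below the number in the complex. At least 1 TPM of all 14 constitutive core subunits was present in 11 of 172 libraries, and at least 100 TPM of all 14 in 3. A C library held a median of 6 core subunits (range 0 to 14) and 4 of 17 subunits of the 19S particle (range 0 to 12) at 100 TPM or more. The most abundant core subunit alone made up a median of 29.2% of the summed core level in C, with a range of 12.2% to 96.6%.

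Summing subunits gave steadier values than any single gene. The summed level of the 14 core subunits in C was 64.8 TPM at the lowest, 7098 TPM at the median and 15474 TPM at the highest. In N it was 155.1, 5167 and 12955 TPM, and the 4 R libraries stood at 5495 to 11661 TPM with a median of 5640 TPM. The 3 classes overlapped, and the C median exceeded the N median by 0.46 on the log2 scale. After rescaling libraries by the median of their ratios to typical levels, the difference changed sign, to -0.14, and that of R minus C went from -0.33 to 0.32. The 17 subunits of the 19S particle had median sums of 3258 TPM (class C), 3697 TPM (class N) and 4150 TPM (class R), with N above C and overlapping ranges. Libraries with a core sum under 200 TPM were C3, C10, C33, C70, C142 and N21; C33 had 6932 TPM of 19S subunits and C3 5391 TPM, so the core and 19S sums did not fall together there. Over the C libraries the core and 19S sums had a rank correlation of 0.10, given as a description of libraries that differ in depth.

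**Figure D1:**
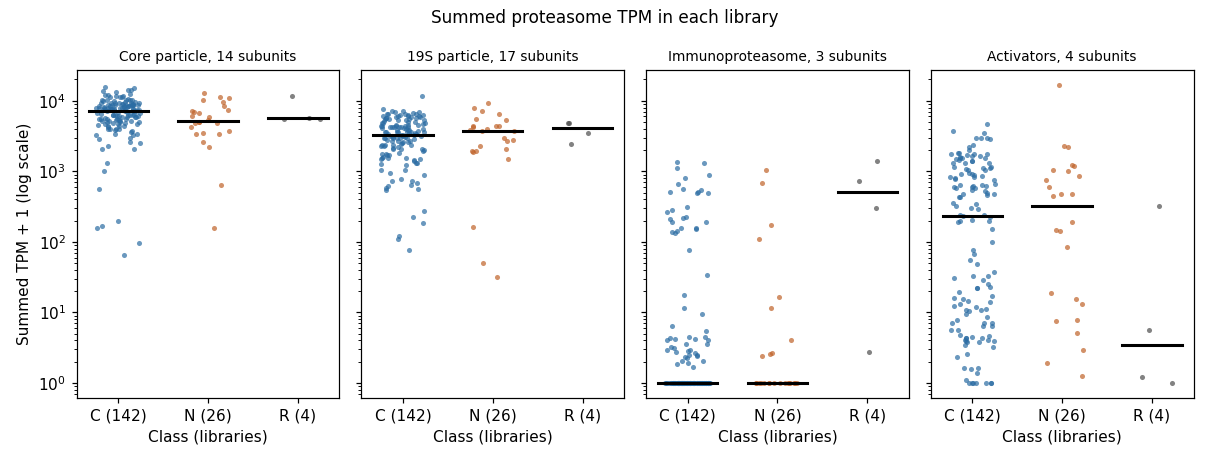
Summed TPM + 1 (log axis) of core, 19S, immunoproteasome and activator genes in each library of class C, N and R; each point is a library and each bar a class median. Core sums overlap between classes around medians of 7098, 5167 and 5640 TPM, while 3 of 4 R libraries lie above 290 TPM for the immunoproteasome sum against class medians of 0 TPM in C and N.

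Between C and N, 9 of 14 core genes and 4 of 8 lid genes were higher in C, and none of the 6 base ATPases was. Of 46 proteasome members tested, 15 were higher in C by at least 1 and 2 were lower, where 9.98% of all 12007 genes were higher and 4.19% lower. Among the 1773 genes with a mean of at least 100 TPM, a range that holds most subunits, the shares were 35% and 6.99%; 15 of 46 is close to the first of these. The median difference was 0.38 over the 46 members, 0.17 over all genes and 0.62 over the abundant genes. Without C142, N4 and N21, 12 members were higher and 4 lower, with no share over all genes given for that set. Rescaling libraries by their median of ratios moved the median of all genes to 0.07. It left 7 members higher and 4 lower, beside 856 and 756 of all 12007 genes.

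In the core, 12 of 14 subunits were above 0 and 9 passed 1, with a median difference of 1.08; after the median-of-ratios rescaling 11 were above 0, 3 passed 1 and 2 passed -1. The largest was Psma6, an alpha subunit, which was at 100 TPM or more in 41.5% of C and 23.1% of N libraries and listed at 0 in 33 and 14, for a difference of 1.70. Psma4, also of the alpha ring, followed with 45.8% against 23.1% of libraries and a difference of 1.69. Psmb1, a beta subunit, was at 100 TPM or more in 59.9% against 38.5%, a difference of 1.32. In each case both classes ranged from 0 to at least 1970 TPM, and C held the larger share of high libraries. The 2 core subunits with the opposite sign were Psma1 (-0.82) and Psmb6, the caspase-like catalytic subunit (-0.84); neither passed 1. Psmb6 was at 100 TPM or more in 61.5% of N libraries, with a median of 785.5 TPM, and in 54.2% of C libraries, with a median of 544.6 TPM. The other catalytic subunits Psmb5, chymotrypsin-like, and Psmb7, trypsin-like, differed by 1.18 and 1.05 in favour of C.

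In the 19S particle the roles had overlapping differences. The 6 base ATPases were all below 0 in C minus N, with a median of -0.26 (-0.69 after the rescaling), and Psmc5 alone passed the limit at -1.42. Psmc5 was at 100 TPM or more in 29.6% of C and 46.2% of N libraries. Psmd11, the lid subunit that clamps the lid to the core, showed the largest difference of any member in the other direction, 2.59. It was at 100 TPM or more in 32.4% of C libraries and in 1 of 26 N libraries, where its median was 1.26 TPM and its highest value 879.1 TPM. Psmd13, another lid subunit, never exceeded 3.73 TPM in N but reached 100 TPM in 16 C libraries, for a difference of 1.25. Of 8 lid subunits 7 were above 0, also after the rescaling, and 4 passed 1 (2 after it); the exception was Psmd3 at -0.15. The 3 other base subunits, Psmd1, Psmd2 and Psmd4, differed by 0.87, 0.15 and -0.12. Over all 17 subunits of the 19S particle the median difference was 0.15 and changed sign under the rescaling, to -0.17.

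The assembly chaperones split in the same comparison. Psmg4, which helps build the alpha ring, was at 100 TPM or more in 35 C libraries (24.6%) and in none of 26 N libraries, where its highest value was 93.01 TPM, for a difference of 2.38. Psmg2, which acts with Psmg1 at the start of core assembly, was at 100 TPM or more in 35 C and 2 N libraries, a difference of 1.53. Psmg1 and Psmg3 differed by 0.35 and -0.08. Psmd10, the base chaperone also called gankyrin, was lower in C by 1.14, with 12.0% of C and 23.1% of N libraries at 100 TPM or more.

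The C and N classes differ in cell types, so the counts were repeated on part of the clusters. With only the stem cell-like and cycling clusters kept, 6 N libraries remained. Of the 46 members, 16 were then higher in C by at least 1 in place of 15, and 8 lower in place of 2. No share over all genes is given for these 6 N libraries, so these counts cannot be read as a result about the members. The difference of the core sums was 0.39 in place of 0.46. Psmd11 had a highest value of 8.83 TPM in the 13 vascular-like libraries, 11 of them N, and was at 100 TPM or more in 24.8% of stem cell-like and 53.6% of cycling-cluster libraries. Psmg4 was at 100 TPM or more in 0 of 13 vascular-like libraries, 18.3% of stem cell-like and 46.4% of cycling-cluster libraries. The part of these markers in the class differences was not tested.

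**Figure D2:**
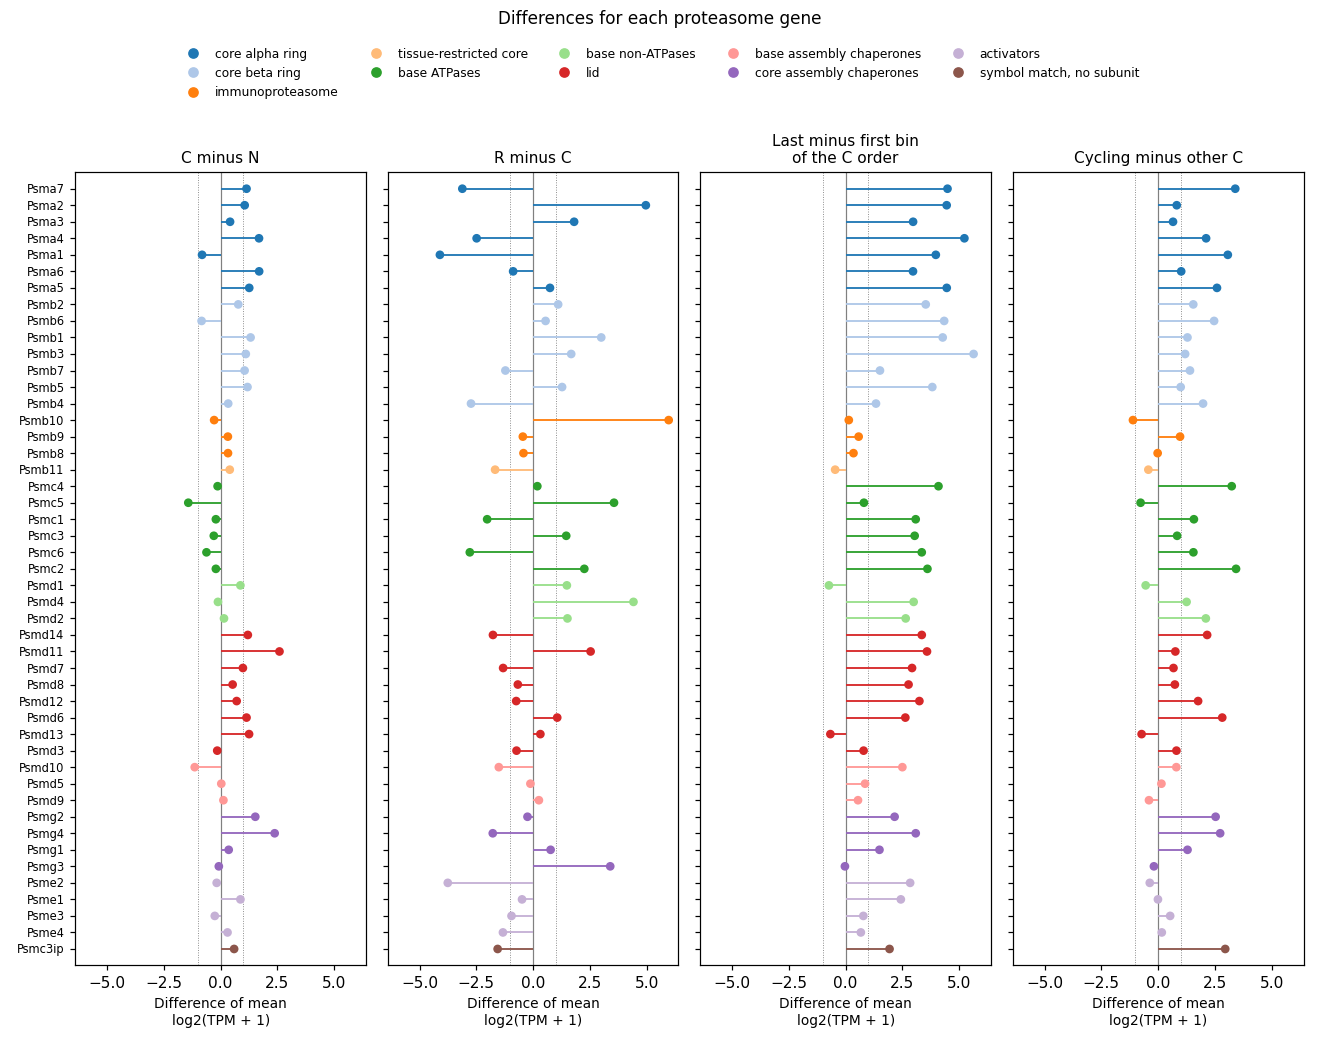
Difference of mean log2(TPM + 1) for each of the 47 members that passed the filter, coloured by role, in C minus N, R minus C, the last minus the first bin of the C order and cycling minus other C libraries; dotted lines mark -1 and 1. All 14 core genes lie right of 1 along the order, the 6 base ATPases lie left of 0 in C minus N, and R minus C scatters widely to both sides.

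The 4 R libraries differed from C in both directions. Of 46 members, 16 were higher and 14 lower in R by at least 1, while among all 12007 genes 20.9% were higher and 22% lower (33.4% and 35.3% of the abundant genes). Many members were high in some R libraries and listed at 0 in others. Against N, 20 members were higher and 10 lower, beside 23.8% and 17.5% of all genes and 43.3% and 22.7% of the abundant genes, and R is compared with N and C on the same 4 libraries; without R3 the number lower than N became 18.

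Psma2, an alpha subunit, was high in every R library, at 1546, 1531, 835.4 and 1638 TPM in R1 to R4, against a C median of 20.6 TPM and an N median of 7.66 TPM. All 4 R libraries lay inside the C range, which reached 3737 TPM, and the difference from C was 4.96. Of the 13 neuron-like libraries, 4 of them R, 11 held Psma2 at 100 TPM or more, with a median of 835.4 TPM. Psmb1 was at 553.8, 888.2, 521.1 and 2432 TPM, against a C median of 526.3 TPM. These were the 2 core subunits at 100 TPM or more in all 4. Psma1 stood at the other end, listed at 0 in R1, R2 and R4 and at 0.61 TPM in R3, against 33.1% of C libraries at 100 TPM or more. Of the 13 neuron-like libraries, 8 held Psma1 at that level, none of them R. Psma7, the alpha subunit with the highest mean over all libraries, was at 11.2, 3.11, 389.4 and 0 TPM.

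In the 19S particle of R, the ubiquitin receptor Psmd4 was at 1580, 247.1, 628.6 and 0 TPM, a difference of 4.42 from C. Psmc5 was at 2.95, 337.1, 302.9 and 1551 TPM, 3.56 above C, and was also the ATPase lower in C than in N. Psmc6, Psmd3 and the chaperone Psmd10 were listed at 0 in all 4 libraries, and C medians of the last 2 were also 0 TPM. Psmc6 had a median of 0 TPM over the 13 neuron-like libraries, R included, with 2 of them at 100 TPM or more. Psmg3, a core assembly chaperone, was at 744.8, 0, 147.5 and 0 TPM, whereas 13.4% of C libraries held 1 TPM or more of it. Of the 13 neuron-like libraries, which include the 4 of R, 5 held it at 100 TPM or more.

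Of the immunoproteasome genes, Psmb10 was high in most R libraries and Psmb8 and Psmb9 in none. Psmb10, which takes the place of Psmb7, was at 1409, 726.8, 296.4 and 1.73 TPM in R1 to R4. It was at 100 TPM or more in 12.7% of C libraries, where the median was 0 TPM and the highest value 875.6 TPM, and in 4 of 26 N libraries, up to 1028 TPM in N21. Thus 3 of 4 R libraries were high and R1 exceeded every C and N library; the difference of R minus C was 5.97, the largest of any member. Psmb8 and Psmb9, the partners that replace Psmb5 and Psmb6, were listed at 0 in all 4 R libraries. In C, Psmb8 was at 100 TPM or more in 5 libraries and Psmb9 in 6, and no N library held either at that level.

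Psmb8 was at 100 TPM or more in 5 of 172 libraries, Psmb9 in 6 and Psmb10 in 25. Libraries with a pair of them cannot outnumber those with either gene, and whether the overlaps depart from chance was not tested. Psmb8 and Psmb9 were both at 100 TPM or more in 1 library (C93, with 250.5 and 1040 TPM), Psmb9 and Psmb10 in 2 (C126 and C139), and Psmb8 and Psmb10 in none. C139 belonged to the oligodendrocyte lineage-like cluster and also had an endothelial marker mean of 5.55, the highest of the C class. As a share of the summed levels of Psmb5 to Psmb10, the inducible genes made up 6.66% in C, 5.64% in N and 33.9% in R. The R libraries ranged from 0.11% in R4 to 61.7% in R1, and the pooled R share was 21% without R1 and 43.1% without R4. For N the share was 2.84% without the 3 libraries with few abundant genes, since N21 carried 1028 TPM of Psmb10.

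Antigen presentation genes were low in most R libraries. B2m, the light chain of class I molecules, was at 0, 3.28, 4.77 and 0 TPM in R1 to R4 against a C median of 621.1 TPM, and the activator Psme2 was at 0, 0, 3.28 and 0 TPM. R3 differed from the other 3, with 217.3 TPM of H2-K1, a class I heavy chain, 299.1 TPM of Irf9 and 69.5 TPM of Stat2, both interferon signalling factors, all listed at 0 in R1, R2 and R4. Of 13 antigen presentation and interferon genes tested, 0 were higher in R than in C by at least 1 and 6 were lower, beside 20.9% and 22% of all genes. All 4 R libraries were neuron-like, and in that cluster Psmb10 was at 100 TPM or more in 1 of 6 C and 1 of 3 N libraries. The microglia marker mean was 0.89 to 3.41 in R, highest in R3, and its part in these values was not tested. Within C, the inducible sum and the mean of the antigen presentation list had a rank correlation of 0.24.

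**Figure D3:**
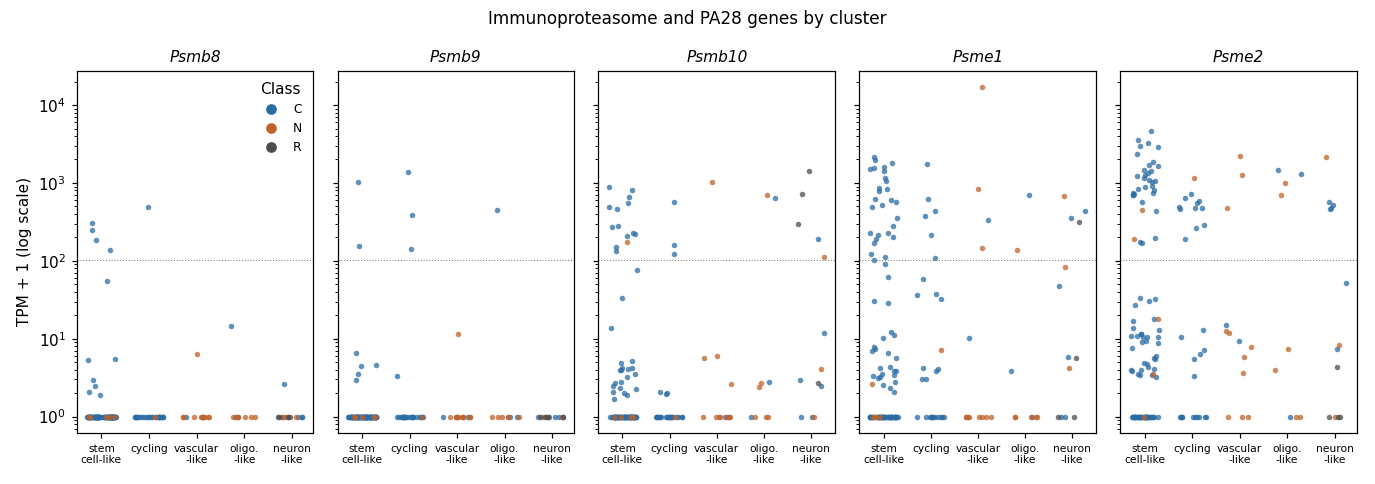
TPM + 1 (log axis) of Psmb8, Psmb9, Psmb10, Psme1 and Psme2 in each library, by cluster and coloured by class; the dotted line marks 100 TPM. Psmb8 and Psmb9 are at 100 TPM or more in 5 and 6 libraries, Psmb10 in 25 including 3 of 4 R libraries, and Psme1 and Psme2 in 44 and 58 spread over all clusters.

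The activators Psme1 and Psme2 were more common than the inducible subunits. Their products form 1 ring together; 44 libraries held Psme1 at 100 TPM or more, 58 held Psme2 and 17 held both. Their rank correlation over C was 0.02. Psme2 was at 100 TPM or more in 34.5% of C libraries (highest 4678 TPM) and 34.6% of N libraries, and in 0 of 4 R libraries, a difference of -3.76 for R minus C. Psme1 was at 100 TPM or more in 26.8% of C, 19.2% of N and 25% of R libraries. The N mean of Psme1, 724.9 TPM, rested on N21 with 16938 TPM and was 76.4 TPM over the other 25 libraries. Psme3, the nuclear activator, and Psme4, a large single-chain activator, were at 100 TPM or more in 12 and 11 libraries and in 0 of 4 R libraries. No library held both, and whether that departs from chance was not tested.

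The tissue-restricted core subunits behaved unlike the rest. Psma8, a testis alpha subunit, was at 1 TPM or more in 5 of 172 libraries, and 1 N library held 3008 TPM. Psmb11, the thymus-specific catalytic subunit, was at 1 TPM or more in 149 of 172 libraries but never above 52.4 TPM, with medians of 6.14 TPM (class C), 4.54 TPM (class N) and 1.07 TPM (class R). It was the only member that was widespread without ever reaching 100 TPM. Its rank correlation with Psmb5 over C was 0.05.

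To follow the members within C, the C libraries of the stem cell-like and cycling clusters were ordered by the first principal component of variable genes outside the members and all gene lists, with the end rich in intermediate progenitor markers last. Orders from 2 separate sets of genes agreed at a rank correlation of 0.96, and the component held 6.19% and 5.95% of the variance in each set. The order was divided into 5 bins of 27, 26, 26, 26 and 26 libraries. In the last minus the first bin, 33 of 46 members were higher by at least 1 and 0 lower, where 26.1% of all genes were higher and 3.71% lower; among abundant genes the shares were 61.5% and 9.53%. The median difference was 2.88 over the members, 0.30 over all genes and 1.60 over the abundant genes.

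All 14 core subunits passed 1, with a median of 4.12. After the median-of-ratios rescaling, which moved the median of all genes to 0.15, 14 were above 0 and 13 passed 1. Psmb3, a beta subunit, had a median of 0 TPM in the first bin and 778.6 TPM in the last, and the libraries at 100 TPM or more went from 5 of 27 to 22 of 26, a difference of 5.63. Psma4 went from 3 of 27 to 21 of 26 such libraries and Psmb6 from 10 of 27 to 25 of 26. The smallest core difference was that of Psmb4, 1.34, with 7 of 27 and 10 of 26 libraries. Of the 17 subunits of the 19S particle 13 passed 1, with a median of 2.99; Psmc4 was the highest (4.09), with a median of 2.31 TPM in the first bin and 581.1 TPM in the last. The scaffold subunit Psmd1 (-0.74) and the lid subunit Psmd13 (-0.67) had the opposite sign, without passing -1; after the rescaling 2 members passed -1. Psmd13 was at 100 TPM or more in 6 of 27 libraries of the first and 2 of 26 of the last bin.

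The summed levels moved much less than the number of subunits seen. The core sum had medians of 5672, 6181, 6336, 8037 and 7826 TPM from the first to the last bin, while the core subunits at 100 TPM or more had medians of 3, 5, 7, 8 and 10.5 of 14. The level of those that were at 100 TPM or more went the other way, from a median of 1604 TPM per library in the first bin to 667.9 TPM in the last. The largest core subunit made up 53.8% of the core sum in the first bin and 23.3% in the last. Hence early libraries held few core transcripts at high values and late libraries many at moderate ones. The rank correlation with the order was 0.79 for the number of core subunits and 0.34 for the core sum over these libraries. For the 19S particle the values were 0.64 and 0.21. After the median-of-ratios rescaling the sums had rank correlations of 0.057 (core) and -0.056 (19S) with the order.

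Other abundant genes showed the same direction. Among non-member genes with a mean of at least 100 TPM, the share at 100 TPM or more in a library had medians of 26.6%, 31.9%, 35.7%, 41.1% and 48% over the 5 bins, and its rank correlation with the order was 0.88. The core share went from 21.4% to 75% and the 19S share from 11.8% to 44.1% over the same libraries. Genes at 1 TPM or more per library went from a median of 3585 to 4174, and the number of core subunits had a rank correlation of 0.23 with that number. The order itself thus runs with how many genes a library holds at high levels, and the part of this in the members' differences was not tested. The difference in core subunits between the last and first bins was 7.5 in all libraries, 8 in libraries with 3000 to 4500 genes, and 5 without cycling libraries.

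**Figure D4:**
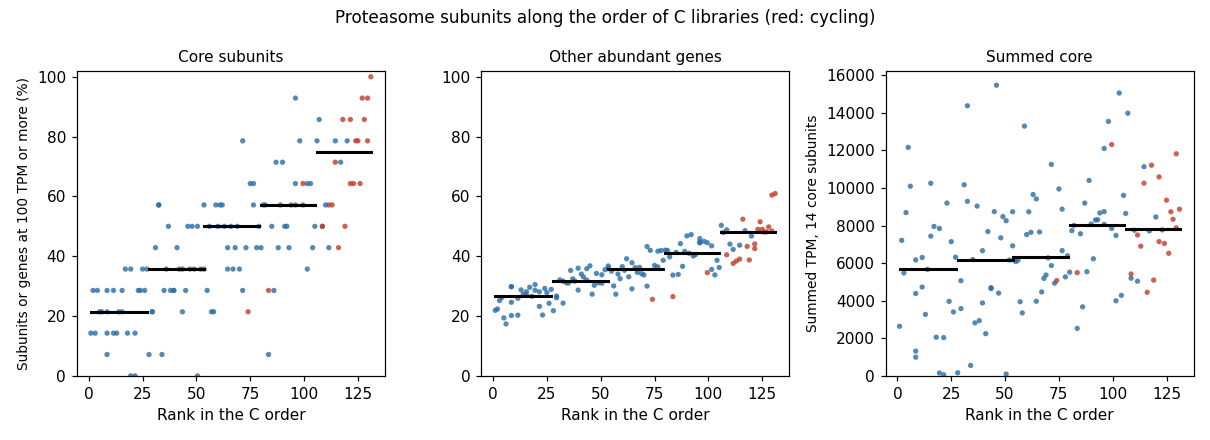
Share of the 14 core subunits and of the other abundant genes at 100 TPM or more, and the summed core TPM, against rank in the order of C libraries (red, cycling libraries; bars, medians of the 5 bins). The core share goes from a median of 21.4% to 75%, the share of other genes from 26.6% to 48%, and the core sum from 5672 to 7826 TPM.

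Inducible and accessory members gave these values along the order. None of the 3 immunoproteasome genes passed 1 (Psmb9 0.57, Psmb8 0.34, Psmb10 0.14). The libraries with any of them at 100 TPM or more were 2 of 27 in the first bin, then 6, 6, 5 and 5 of 26. Their share of the summed Psmb5 to Psmb10 levels was 2.04%, 11.2%, 10.1%, 7.69% and 4.24% over the bins. Psme2 differed by 2.84, with 3, 11, 7, 9 and 13 libraries at 100 TPM or more over the 5 bins. Psme1 differed by 2.43, with 2, 7, 11, 6 and 8 such libraries, whereas Psme3 and Psme4 stayed under 1. Of the 4 activators, 0 reached a rank correlation of 0.2 with the order. Psmg4 went from 3 of 27 to 13 of 26 libraries at 100 TPM or more, a difference of 3.09, and Psmg2 and Psmg1 differed by 2.15 and 1.49. Psmg3 differed by -0.03. Psmd10 was the base chaperone that passed 1, at 2.50, and Psmb11 differed by -0.46.

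In the 22 cycling C libraries, defined by a mean log2(TPM + 1) of at least 3 over S phase and G2 and mitosis genes, 23 of 46 members were higher than in the other 120 by at least 1 and 1 was lower; 16.2% of all genes were higher and 5% lower, and 40.1% and 15.9% of the abundant genes. Of the 14 core subunits 11 passed 1, with a median of 1.47. Psma7 was at 100 TPM or more in 21 of 22 cycling and 62 of 120 other libraries, a difference of 3.39, and its medians were 954.2 and 134.2 TPM. Psmc2, an ATPase of the base, was at that level in 14 of 22 and 22 of 120 (3.43), and Psmc4 in 16 of 22 and 38 of 120 (3.24). The lid subunit Psmd6 followed with 11 of 22 and 20 of 120 (2.82). Psmb10 was the 1 member lower, by -1.11, with 1 of 22 and 17 of 120 libraries. The core sum differed little, with medians of 7636 TPM in cycling and 6668 TPM in other libraries, a log2 difference of 0.20 that was -0.0063 after the median-of-ratios rescaling; that of the 19S sum went from 0.17 to -0.33. Of the 22 cycling libraries 18 were in the last bin of the order, and 5 C libraries lay within 0.5 of the limit, so this contrast and the order share most of their libraries. The meiotic cofactor Psmc3ip differed by 2.95, at 10 of 22 and 10 of 120 libraries.

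Subunits of the complex varied nearly independently from library to library. Over the C libraries the median rank correlation was 0.09 between 2 core subunits (91 pairs, highest 0.29), 0.08 between 2 subunits of the 19S particle and 0.08 between the groups. Core subunits with other abundant genes gave 0.04, and other abundant genes with each other 0.03. These correlations are weak, share the libraries' depth and many zeros, and are given as a description only.

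Genes around the proteasome gave these counts. Of 9 associated genes tested, 7 were higher in the last than in the first bin of the order by at least 1 and 0 lower, beside 26.1% and 3.71% of all genes and 61.5% and 9.53% of the abundant genes, and 1 was higher in C than in N, beside 9.98% of all genes. Shfm1, a small lid subunit with a symbol outside the rule, was at a mean of 947.2 TPM and had the largest difference along the order, 4.41, and Pomp, which matures the core, was at a mean of 599 TPM. AI314180, which holds the core and 19S particle together, was higher in C than in N by 1.01. Of 5 regulators of proteasome genes tested, 2 were higher along the order, Nfe2l2 (2.84) and Nfe2l1 (1.28), both transcription factors that act on antioxidant elements, and Nfe2l2 was also higher in C than in N (1.08). Of 13 antigen presentation and interferon genes, 2 were higher and 2 lower along the order; B2m was among the lower ones (-1.37).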

How the data were processed

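TPM values for 172 single-cell libraries of total RNA (NuGEN Ultralow V2, per the labels' protocols) were deposited by the authors as 1 table, made with RSEM and mm9 per the submitters' processing notes; versions, aligner and annotation: not given in the sources used here. TPM keeps no depth, so no counting interval was made. Of 172 columns, 171 matched 1 of 173 titles; C27 fits a pair of titles and was used without a number. Members and lists were chosen with earlier results of these data known. Named members were those of extreme level or difference in each role, plus Psmb5 to Psmb10, Psme1 to Psme4, Psma8 and Psmb11; others were named after their values were seen. Differences of mean log2(TPM + 1) were taken per gene over 12007 genes at 1 TPM or more in at least 5% of libraries. The limit of 100 TPM, the added alternatives and the cluster name limits were chosen after seeing the data. Clusters were 8 Ward clusters on 15 principal components of 2000 variable genes; no doublet caller was run and no library was removed. The code for the differences and the order was run on simulated data as a check of the code only. The ubiquitin and shuttle gene lists are not reported here. Analyses used Python 3.11.15, numpy 2.4.6, pandas 2.3.3, scipy 1.17.1 and statsmodels 0.14.6.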

Additional observations from a re-analysis of the deposited data

Results flagged for a closer look

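Within the 4 R libraries, 13 sets of values were examined for a library far from the other 3, and 5 had one. Far meant that the gap to the nearest value exceeded a fixed share of the range over the 4. Some sets share values, and whether 5 of 13 is more than chance gives was not tested. R4 had a summed core level of 11661 TPM, with the others from 5495 to 5723 TPM, and the highest core-to-19S ratio, 4.75. R3 had a summed activator level of 318.9 TPM, 11 core subunits at 100 TPM or more, and the lowest Psma2 value, 9.71 on the log2(TPM + 1) scale.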

How the results depend on the processing

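Over 175 recalculations of 25 results, 157 stayed within a limit, 17 moved further and 1 reversed. The limit was the spread between libraries, 1.5 times for counts of members, and for rank correlations a width set by the number of libraries. A change of sign counted as reversed only where the main value was at least 1, or 0.2 for rank correlations. Some recalculations could not move, such as the C and N shares without an R library, so the tally does not measure robustness. With a pseudocount of 10, members called in C minus N became 6 higher and 1 lower, those lower in R minus C 9, and in cycling minus other C 15 higher and 0 lower. Rescaling by median of ratios gave 7 higher and 4 lower in C minus N, 2 lower along the C order, a rank correlation of the core sum with the order of 0.057, and one of the 19S sum of -0.056 in place of 0.21, a change of sign. Keeping libraries with at least 3000 genes gave 1 member lower in C minus N and 0.49 for the core sum along the order. With only the stem cell-like and cycling clusters 8 members were lower in C minus N, and without the 3 libraries with few abundant genes 4. A pseudocount of 0.1 gave 1 member lower along the order, and cycling limits of 2 and 4 each gave 0 lower. Leaving out 1 R library at a time gave 10 to 18 members lower in R minus N. Outside the median-of-ratios rescaling, no share over all genes is given beside these recalculated counts. The causes were not tested. Within that spread, the core sum changed sign after rescaling by median of ratios, from 0.46 to -0.14 in C minus N from -0.33 to 0.32 in R minus C and from 0.20 to -0.0063 in cycling minus other C, and the 19S sum in the last from 0.17 to -0.33. The R share without other clusters could not be computed, since no R library remained. No paired analysis was possible because the results come from no test and the titles' numbers only name libraries.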
